A study of Mus musculus with 24 samples.

Results

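Myc, the 3 D-type cyclins Ccnd1, Ccnd2 and Ccnd3, their kinases Cdk4 and Cdk6, the cyclin-kinase inhibitor Cdkn1b (p27) and the pocket protein gene Rb1 make up the machinery that moves a resting cell out of G1. These 8 genes were picked by name for that role, with earlier results of these data known, as were the gene lists used below. All 8 were found by symbol among the 36806 genes of the table, and all 8 passed the filter on low values. Polyadenylated RNA of whole mouse pancreas was measured by RNA sequencing after caerulein, a cholecystokinin analog that drives the enzyme-secreting acinar cells too hard and brings on a mild, reversible pancreatitis. All mice were C57BL, and Nr5a2 +/- animals (called HET), with 1 intact copy of this nuclear receptor gene of acinar cells, were set against Nr5a2 +/+ animals (called WT). For each genotype 3 animals had saline, and 3 animals each were killed 8, 24 or 48 h after the first of 7 hourly intraperitoneal injections of 50 ug/kg caerulein, which gives 8 groups and 24 libraries. The labels name no Cre or promoter that would limit the allele to a cell type, and a whole pancreas also holds ducts, islets, stroma and the immune cells that enter it during inflammation.

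Mitogens raise Myc and the D cyclins, the D cyclins bind Cdk4 or Cdk6, and these kinases phosphorylate Rb1, which then releases E2F factors to switch on DNA replication genes. Cdkn1b binds and restrains cyclin-kinase complexes, most of all those with Cdk2, and D cyclin complexes also titrate it. Myc acts as a dimer with Max on the sequence CACGTG and drives ribosome production and cell growth. Cdk4 and Ccnd2 are known Myc target genes in mouse and human cells. In the pancreas, acinar cells rarely divide at rest and re-enter the cell cycle in the days after caerulein, and mice without Cdk4 develop diabetes from a shortage of beta cells.

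In GENCODE M21 (GRCm38), which is not the build of the deposited values, Myc (ENSMUSG00000022346), chr15:61985391-61990374 on the + strand is annotated as a protein-coding gene, as are the other 7. The cyclins are Ccnd1 (ENSMUSG00000070348), chr7:144929931-144939925 on the - strand, Ccnd2 (ENSMUSG00000000184), chr6:127125162-127152193 on the - strand and Ccnd3 (ENSMUSG00000034165), chr17:47505051-47599691 on the + strand. The kinases are Cdk4 (ENSMUSG00000006728), chr10:127063534-127067920 on the + strand and Cdk6 (ENSMUSG00000040274), chr5:3341485-3531008 on the + strand, the inhibitor is Cdkn1b (ENSMUSG00000003031), chr6:134920401-134925513 on the + strand, and the pocket protein gene is Rb1 (ENSMUSG00000022105), chr14:73183673-73325822 on the - strand. The 8 genes lie at separate loci, with Ccnd2 and Cdkn1b on the same chromosome.

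Promoter windows are shown for the D cyclin kinases, with the Myc and Max recognition sequence CACGTG (which reads the same on both strands) in capitals, and these matches were not tested against expression. Across the 24 libraries, which share groups, depth and scaling, the levels of Myc and Cdk4 ran opposite to each other (Pearson r -0.843, a description). RefSeq windows of GRCm38.p6, 250 bases before to 50 bases after a start, matched 4 of the 8 genes. The Cdk4 window, chr10:127063285-127063584 on the + strand, held 4 such matches, whose first bases lay at -172, -118, -98 and -11 from the start. The Cdk6 window, chr5:3343643-3343942 on the + strand, held 1 match at -220.
Cdk4: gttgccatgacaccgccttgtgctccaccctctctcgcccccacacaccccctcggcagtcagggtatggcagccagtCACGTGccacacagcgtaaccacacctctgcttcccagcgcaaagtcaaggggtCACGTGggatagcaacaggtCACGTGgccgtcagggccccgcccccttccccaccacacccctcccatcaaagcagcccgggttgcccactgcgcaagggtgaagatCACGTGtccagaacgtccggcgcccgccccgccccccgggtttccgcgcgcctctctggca
Cdk6: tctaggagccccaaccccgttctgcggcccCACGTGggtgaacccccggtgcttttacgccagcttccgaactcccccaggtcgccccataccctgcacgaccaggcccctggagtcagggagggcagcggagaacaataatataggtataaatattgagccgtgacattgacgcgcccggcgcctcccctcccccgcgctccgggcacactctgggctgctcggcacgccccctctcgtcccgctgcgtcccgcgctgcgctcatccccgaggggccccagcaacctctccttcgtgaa
The Cdkn1b window (chr6:134920151-134920450) and both Ccnd3 windows held 0 matches. Among 32851 promoter windows of that length 7.15% held at least 1 match, and 8 windows (0.0244%) held 4 or more. A match describes the letters in the window and not a bound site.

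Levels are FPKM as the authors made them, scaled for transcript length and between libraries. Median-of-ratios factors computed from them lay between 0.963 and 1.03, so the libraries were already close to that scaling and not to equal totals. Changes are log2 fold changes of FPKM + 1, which understate the change of a gene near or under 1 FPKM. Total FPKM per library ran between 217205 and 1400108. The relative depth that the steps of low values give ran between 0.0978 and 1.54 and was low in the saline libraries. At 48 h this depth was 1 to 1.54 in HET and 0.402 to 0.661 in WT. At 24 h it was 0.386 to 0.425 in HET and 0.199 to 0.337 in WT. Depth and genotype thus cannot be told apart at 24 and 48 h, and the part of depth in the genotype differences was not tested. The libraries that stood apart were HET saline replicate 1, with the highest total and the lowest depth, and HET 48 h replicate 3, in which digestive enzyme and Reg genes took 4.43% of the total. Nr5a2 itself ranged over 8.01 to 9.09 FPKM in HET saline and 9.26 to 12.6 FPKM in WT saline, and over 1.88 to 2.15 FPKM in HET and 2.25 to 3.20 FPKM in WT at 8 h, below WT without overlap. At 24 h it ranged over 4.09 to 5.39 FPKM in HET and 4.64 to 6.44 FPKM in WT, and at 48 h over 2.64 to 5.70 FPKM in HET and 4.08 to 6.20 FPKM in WT, so the genotypes overlapped at both times. Of 12 acinar defining markers, 6 (Cpa1, Cel, Pnlip, Cela2a, Prss2 and Amy2a5) were listed at 0 in all libraries of the saline and 8 h groups, and the summed level of the 12 was 96720 to 178851 FPKM in HET saline and 114320 to 179397 FPKM in WT saline. Saline and 24 h libraries were prepared with an earlier kit guide and 8 h and 48 h libraries with a later one (1 WT saline library is in neither list). For 8 h or 48 h against saline the guide and the time thus cannot be told apart. The comparisons of 24 h against saline, of 48 h against 8 h and of HET against WT lie within a guide, except where they use that 1 WT saline library. Its guide is not known, which touches WT at 24 h against saline and HET against WT in saline.

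Across the 24 libraries Cdk4 had the highest level of the 8 genes in 24 of 24 and Cdk6 the lowest in 24 of 24. Per kilobase of transcript, Cdk4 ran between 34.5 and 122 FPKM (median 65.8) and Cdk6 between 0.486 and 1.81 FPKM (median 0.722), so Cdk4 was 46.8 to 213 times the level of Cdk6 in the same library. Myc had a median of 11.7 FPKM (4.28 to 28.5), and the D cyclins had medians of 7.84 FPKM (Ccnd1, 1.78 to 11.8), 11.2 FPKM (Ccnd2, 7.54 to 18.8) and 8.52 FPKM (Ccnd3, 5.79 to 15). Cdkn1b (median 4.09, 1.78 to 6.12) and Rb1 (median 4.2, 1.5 to 12 FPKM) were lower. The widest span from lowest to highest library was that of Rb1 and the narrowest that of Ccnd2 (ratio 2.49). Cdk6 reached 1 FPKM in 6 of the 24 libraries, 3 of them in HET at 24 h, while the other 7 genes did so in all 24.

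**Figure D1:**
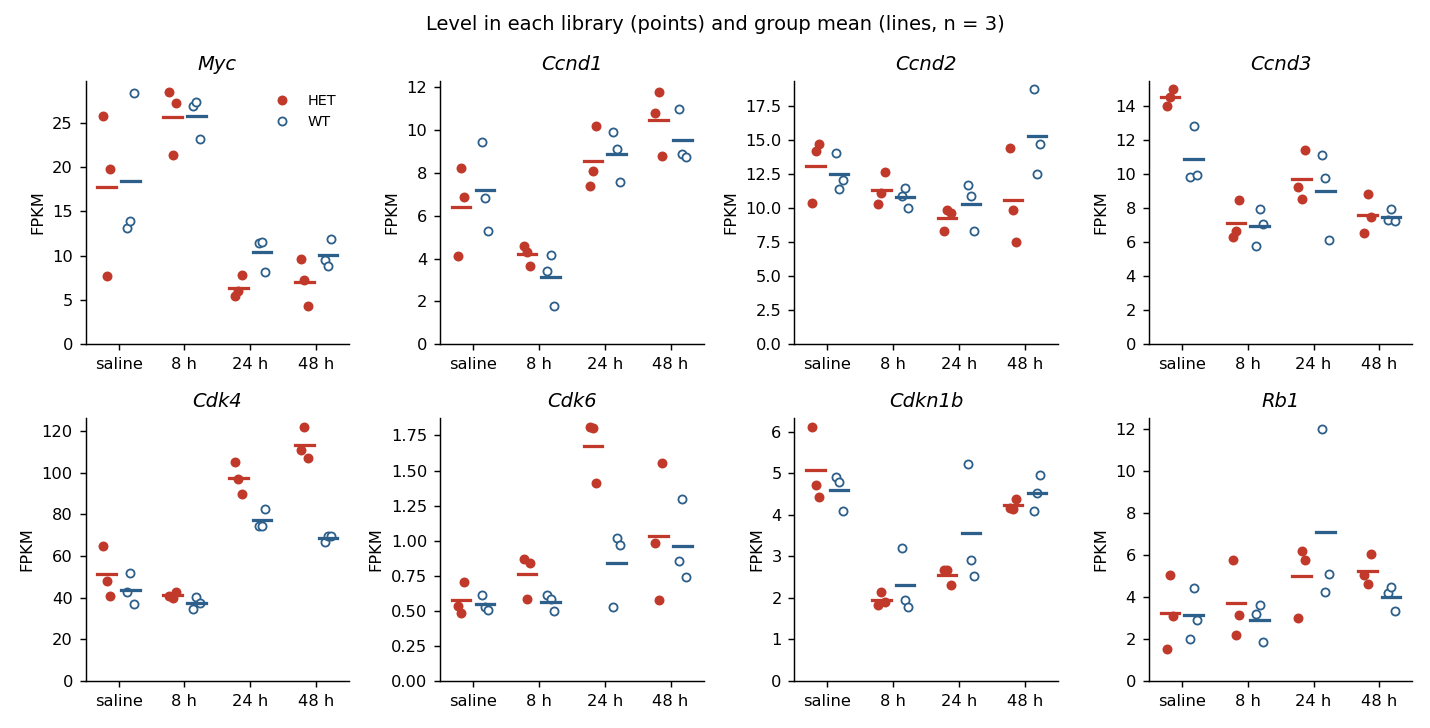
FPKM (vertical axis, from 0) of each of the 8 genes in the 8 groups, HET left of WT in saline and at 8, 24 and 48 h. Each point is 1 animal and each horizontal line the mean of 3; Myc is highest at 8 h and low at 24 and 48 h, and Cdk4 in HET at 48 h (107 to 122 FPKM) lies above every other library.

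Differences were tested with limma across all genes, and a gene is called where its Benjamini-Hochberg adjusted p is under 0.05. At 8 h against saline 0 of the 8 genes rose and 2 fell in HET, where 55.2% of all genes tested were called, and 0 rose and 3 fell in WT, where 51% were. At 24 h against saline 2 rose and 3 fell in HET, beside 43.8% of all genes, and 1 rose and 0 fell in WT, beside 39.2%. At 48 h against saline 2 rose and 2 fell in HET, beside 44.2% of all genes, and 1 rose and 0 fell in WT, beside 25.3%. At 48 h against 8 h 3 rose and 1 fell in each genotype, beside 52% of all genes in HET and 50% in WT. Caerulein thus went with changes in a large share of all genes, and these counts say nothing particular about the 8. In bulk tissue, fewer cells of a type and less RNA per cell cannot be told apart, in these and all later results.

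Myc, the transcription factor at the head of the pathway, stood high at 8 h in both genotypes and low at 24 and 48 h. It had 25.8, 7.73 and 19.8 FPKM in HET saline and 13.1, 13.9 and 28.4 FPKM in WT saline. At 8 h it had 28.5, 21.4 and 27.2 FPKM in HET and 26.9, 27.3 and 23.2 FPKM in WT. The saline animals spread widely in both genotypes and reached into the range of the 8 h animals, and the 8 h animals of the 2 genotypes interleaved. At 24 h Myc had 5.41, 6.01 and 7.77 FPKM in HET and 11.4, 11.5 and 8.19 FPKM in WT. At 48 h it had 9.57, 7.27 and 4.28 FPKM in HET and 9.47, 8.83 and 11.9 FPKM in WT. Every HET animal at 24 h lay below every WT animal, and at 48 h the genotypes overlapped.

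Between 8 and 48 h, within one kit guide, the Myc animals of each genotype separated by time. Myc at 48 h was lower than at 8 h by a log2 fold change of -1.78 ± 0.34 in HET (SE, adjusted p = 0.000187) and of -1.28 ± 0.34 in WT (adjusted p = 0.00359), with no overlap between the times in either genotype (n = 3 each). With libraries scaled by what is left once enzyme and Reg genes are taken out (called the enzyme-free scaling), the WT change was -0.65 (adjusted p = 0.147), or -1.11 relative to the median of all genes, which this scaling puts at 0.45. Against saline, Myc in HET fell by 1.21 at 24 h (adjusted p = 0.00671) and by 1.13 at 48 h (adjusted p = 0.0102) on the log2 scale, although the groups overlapped both times. Both calls rest on the scaling and on single libraries: with the enzyme-free scaling the changes were -0.16 and -0.11 (-0.96 at 48 h relative to the median of all genes), and without HET saline replicate 1 they were -0.88 (adjusted p = 0.0517) and -0.80 (adjusted p = 0.0757). At 48 h the change was -0.86 (adjusted p = 0.0723) without HET 48 h replicate 3 and -0.53 (adjusted p = 0.287) without both libraries that stood apart. In WT the changes were -0.71 at 24 h (adjusted p = 0.104) and -0.74 at 48 h (adjusted p = 0.114). The 8 h value against saline was 0.65 ± 0.34 in HET (adjusted p = 0.112) and 0.54 ± 0.34 in WT (adjusted p = 0.192) and passed in neither. It was 0.98 (adjusted p = 0.0168) in HET without the 2 libraries that stood apart and 0.88 (adjusted p = 0.0403) in WT without WT saline replicate 3.

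The genes that Myc is known to activate for ribosome production and growth were higher at 8 h and came down by 48 h. Of the 20 in the list, 16 rose and 1 fell in HET and 14 rose and 1 fell in WT at 8 h against saline, with list medians of 0.93 and 0.88, beside medians over all genes of 0.01 in HET and 0.05 in WT. Ddx21, an RNA helicase of ribosomal RNA processing, averaged 33.1 FPKM in HET at 8 h against 5.98 FPKM in HET saline (log2 fold change 2.30 ± 0.11, adjusted p = 3.89e-12) and 29.7 FPKM in WT at 8 h against 6.01 FPKM in WT saline (2.13 ± 0.11, adjusted p = 1.08e-11). Nop58, a core protein of box C/D snoRNPs, rose by 2.89 in HET and by 2.73 in WT. From 8 to 48 h, 18 of the 20 fell and 1 rose in HET (median -1.43) and 16 fell and 1 rose in WT (median -1.29), beside medians over all genes of -0.03 and 0.01. Under the enzyme-free scaling the falls numbered 10 in HET and 11 in WT, and the list medians were -0.50 in HET and -0.67 in WT, which is -1.18 in HET and -1.13 in WT relative to the medians of all genes under it (0.69 and 0.45). At 24 h against saline the list was mixed, with 8 higher and 4 lower in HET and 7 higher and 5 lower in WT. The enzyme-free scaling gave 17 higher and 2 lower in HET and 13 higher and 2 lower in WT. At 24 h Odc1, which starts polyamine synthesis, fell by 1.73 in HET and by 1.63 in WT, and Srm, the spermidine synthase, fell by 1.92 in HET and by 2.13 in WT. Relative to saline 2 rose and 3 fell in HET at 48 h and 4 rose and 3 fell in WT (15 and 2 in HET and 10 and 2 in WT with the enzyme-free scaling). With 1 library left out the 4 rises in WT ran between 0 and 5.

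Of 11 Myc partners and antagonists 9 were tested. Mxi1, which binds Max in place of Myc and represses the same sites, averaged 0.831 FPKM in HET at 8 h against 4.52 FPKM in HET saline and 0.871 FPKM in WT at 8 h against 4.60 FPKM in WT saline. Its log2 fold change at 8 h was -1.59 in each genotype (adjusted p = 7.38e-10 in HET and 7.79e-10 in WT), and at 48 h it was -0.78 in HET and -0.62 in WT, where 0 partners fell with the enzyme-free scaling. Zbtb17 (Miz-1), through which Myc represses genes such as cell cycle inhibitors, rose at 8 h by 1.34 in HET (adjusted p = 1.39e-05) and by 1.18 in WT (adjusted p = 6.76e-05). In all, 3 partners rose and 2 fell in HET and 2 rose and 3 fell in WT at 8 h, so 5 of 9 were called in each genotype, which is near the 55.2% (HET) and 51% (WT) of all genes and no result about the partners. At 24 h 1 rose and 2 fell in each genotype, turning to 8 and 0 in HET and 4 and 0 in WT with the enzyme-free scaling.

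The D cyclins, the regulatory subunits that sense mitogens, each followed a different course. Ccnd1 had its lowest group means at 8 h and its highest at 48 h, Ccnd3 its highest in saline, and Ccnd2 passed the test in no comparison. Ccnd2 had the highest level of the 3 in 16 libraries, Ccnd3 in 6 and Ccnd1 in 2, which were HET animals at 48 h. The share of Ccnd1 in the summed D cyclin FPKM was 14.4 to 22.3% in HET saline and 19.4 to 28.3% in WT saline, 14.7 to 21.8% in HET and 9.44 to 17.7% in WT at 8 h, and 34.0 to 38.7% in HET and 28.5 to 30.3% in WT at 48 h. The share of Ccnd3 was 39.2 to 49.1% in HET saline and 29.5 to 41.2% in WT saline, against 20.6 to 31.3% in HET and 19.6 to 27.1% in WT at 48 h.

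Ccnd1 had 4.11, 8.25 and 6.90 FPKM in HET saline and 9.45, 6.84 and 5.30 FPKM in WT saline. At 8 h it had 4.61, 4.33 and 3.66 FPKM in HET and 3.42, 4.19 and 1.78 FPKM in WT. All WT animals at 8 h lay below all WT saline animals, whereas in HET the lowest saline animal, replicate 1, lay within the 8 h range. At 24 h Ccnd1 had 7.39, 8.09 and 10.2 FPKM in HET and 9.93, 9.11 and 7.58 FPKM in WT, and at 48 h 10.8, 11.8 and 8.81 FPKM in HET and 11, 8.91 and 8.75 FPKM in WT. Every 48 h animal exceeded every 8 h animal of its genotype. LTO1, which overlaps Ccnd1 by 1771 bases on the opposite strand (GRCm38), had 4.23 to 10.1 FPKM in HET and 7.4 to 9.13 FPKM in WT at 8 h, against 2.12 to 2.85 FPKM in HET saline and 1.72 to 2.64 FPKM in WT saline, so it was higher at 8 h where Ccnd1 was lower in WT. Ccnd1 fell at 8 h in WT by 1.01 (SE 0.23, adjusted p = 0.00127), and in HET its log2 change was -0.47 ± 0.23 (adjusted p = 0.0944), or -0.72 (adjusted p = 0.0155) without the libraries that stood apart. Relative to 8 h it rose at 48 h 2.20-fold in HET (log2 fold change 1.14 ± 0.23, adjusted p = 0.000437) and 2.63-fold in WT (1.39 ± 0.23, adjusted p = 5.88e-05). Relative to saline it rose at 48 h in HET by 0.66 ± 0.23 (adjusted p = 0.0275), a call that was lost without HET saline replicate 1 (0.42, adjusted p = 0.177), without HET 48 h replicate 1 (0.64, adjusted p = 0.0671) or without HET 48 h replicate 2 (0.58, adjusted p = 0.0922). The WT value was 0.39 ± 0.23 (adjusted p = 0.237).

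Ccnd3 had 14, 14.5 and 15 FPKM in HET saline and 9.84, 12.8 and 9.96 FPKM in WT saline. At 8 h it had 6.27, 6.65 and 8.49 FPKM in HET and 5.79, 7.94 and 7.07 FPKM in WT. Every 8 h animal lay below every saline animal. At 24 h Ccnd3 had 9.22, 8.54 and 11.4 FPKM in HET and 11.1, 9.79 and 6.10 FPKM in WT, and at 48 h 6.55, 8.83 and 7.45 FPKM in HET and 7.28, 7.97 and 7.22 FPKM in WT. The HET saline animals lay above every other library. Bysl, which overlaps Ccnd3 by 361 bases on the opposite strand, had 5.73 to 7.13 FPKM in HET and 5.89 to 7.65 FPKM in WT at 8 h, against 3.5 to 5 FPKM in HET saline and 3.23 to 4.19 FPKM in WT saline. It was higher at 8 h without overlap, where Ccnd3 was lower. Against saline, Ccnd3 fell at 8 h by 0.94 in HET (SE 0.18, adjusted p = 0.000142) and by 0.58 in WT (SE 0.18, adjusted p = 0.00906). The WT call was lost with the enzyme-free scaling (adjusted p = 0.0788), without WT saline replicate 2 (adjusted p = 0.0531) and without WT 8 h replicate 1 (adjusted p = 0.0537). In HET it was also lower at 24 h (-0.54 ± 0.18, adjusted p = 0.0174) and at 48 h (-0.86 ± 0.18, adjusted p = 0.000637), but these signs turned to 0.52 and 0.16 with the enzyme-free scaling, under which Ccnd3 was at -0.32 and -0.69 relative to the median of all genes. The 24 h call was lost without HET 24 h replicate 1 (adjusted p = 0.0529) or replicate 2 (adjusted p = 0.0739). The WT values were -0.27 at 24 h (adjusted p = 0.231) and -0.48 at 48 h (adjusted p = 0.0533).

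Ccnd2 had 10.4, 14.2 and 14.7 FPKM in HET saline and 14.1, 11.4 and 12.1 FPKM in WT saline. Ccnd2 at 8 h had 10.3, 11.1 and 12.7 FPKM in HET and 10.9, 11.5 and 10.0 FPKM in WT. All 4 of these groups overlapped. At 24 h it had 8.31, 9.90 and 9.66 FPKM in HET and 11.7, 10.9 and 8.35 FPKM in WT, and at 48 h 14.4, 9.90 and 7.54 FPKM in HET and 18.8, 12.5 and 14.7 FPKM in WT. In HET all 24 h animals lay below all saline animals, with a log2 change of -0.44 ± 0.19 (adjusted p = 0.0658). In WT all 48 h animals lay above all 8 h animals, with a log2 change of 0.45 ± 0.19 (adjusted p = 0.0544). Without the libraries that stood apart, both passed, at -0.59 (adjusted p = 0.0145) and 0.45 (adjusted p = 0.0240). With the enzyme-free scaling the HET value turned to 0.61 (adjusted p = 0.0684), or -0.24 relative to the median of all genes. The WT value was then 1.05 (adjusted p = 0.00520), or 0.60 relative to that median.

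Cdk4, the D cyclin kinase with the higher level, was higher at 24 and 48 h than in saline in both genotypes, and higher in HET than in WT at 48 h. It had 65.0, 48.2 and 40.7 FPKM in HET saline and 42.5, 51.9 and 36.8 FPKM in WT saline. Cdk4 at 8 h had 40.8, 39.9 and 42.7 FPKM in HET and 34.5, 40.2 and 37.3 FPKM in WT. The 8 h animals of each genotype overlapped its saline animals, and no change at 8 h passed (-0.29 in HET, adjusted p = 0.1002; -0.21 in WT, adjusted p = 0.238). At 24 h Cdk4 had 105, 96.9 and 89.7 FPKM in HET and 74.5, 74.2 and 82.5 FPKM in WT. At 48 h it had 111, 122 and 107 FPKM in HET and 66.7, 69.8 and 69.5 FPKM in WT. In the order of group means HET at 48 h came first, then HET at 24 h, WT at 24 h and WT at 48 h, and none of these 4 groups overlapped the next.

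Against saline, Cdk4 rose at 24 h by 0.93 ± 0.14 in HET (1.91-fold, adjusted p = 4.02e-05) and by 0.82 ± 0.14 in WT (1.76-fold, adjusted p = 0.000209). These lie within one kit guide, apart from the 1 WT saline library whose guide is not known. Relative to 8 h it rose at 48 h by 1.44 ± 0.14 in HET (2.71-fold, adjusted p = 9.68e-08) and by 0.86 ± 0.14 in WT (1.82-fold, adjusted p = 5.36e-05). The rises at 48 h against saline were 1.15 ± 0.14 in HET (2.22-fold, adjusted p = 4.20e-06) and 0.65 ± 0.14 in WT (1.57-fold, adjusted p = 0.00281). Each of these 6 calls was kept in all 7 other settings tried and with each of the 24 libraries left out. Some of these settings could change little: keeping zeros alters no value of the 8 genes, and the median-of-ratios factors lay between 0.963 and 1.03. With the enzyme-free scaling the medians of all genes were 0.84 in HET and 0.67 in WT at 24 h and 0.85 in HET and 0.43 in WT at 48 h. Relative to those medians Cdk4 was still higher, by 1.23 in HET and 1.05 in WT at 24 h and by 1.41 in HET and 0.83 in WT at 48 h. On the opposite strand Tspan31 overlaps the 3' end of Cdk4 by 641 bases (GRCm38), and use of strand in counting is not given in the sources used here, so reads there cannot be told apart. Tspan31 had 20.4 to 21.6 FPKM in HET and 17.9 to 19.1 FPKM in WT at 48 h, against 21.2 to 26.5 FPKM in HET saline and 19.8 to 25.6 FPKM in WT saline, so at 48 h it overlapped its saline range in HET and lay below it in WT. At 24 h Tspan31 had 24.7 to 30.7 FPKM in HET and 18.2 to 26.4 FPKM in WT, which overlapped saline in both genotypes, and at 8 h it was below saline, at 8.39 to 9.46 FPKM in HET and 7.42 to 9.96 FPKM in WT.

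Cdk6, the second D cyclin kinase, stayed below 1 FPKM in 18 of 24 libraries. It had 0.534, 0.486 and 0.705 FPKM in HET saline and 0.612, 0.529 and 0.506 FPKM in WT saline. Cdk6 at 8 h had 0.872, 0.584 and 0.841 FPKM in HET and 0.609, 0.584 and 0.498 FPKM in WT. The saline and 8 h groups overlapped in both genotypes. At 24 h Cdk6 had 1.81, 1.8 and 1.41 FPKM in HET and 0.525, 1.02 and 0.971 FPKM in WT, and at 48 h 0.984, 0.574 and 1.55 FPKM in HET and 0.854, 1.3 and 0.738 FPKM in WT. All HET animals at 24 h lay above all HET saline animals and above all WT animals at 24 h. The 24 h rise in HET was 0.76 ± 0.16 (adjusted p = 0.000732), and the WT value was 0.24 ± 0.16 (adjusted p = 0.258).

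**Figure D2:**
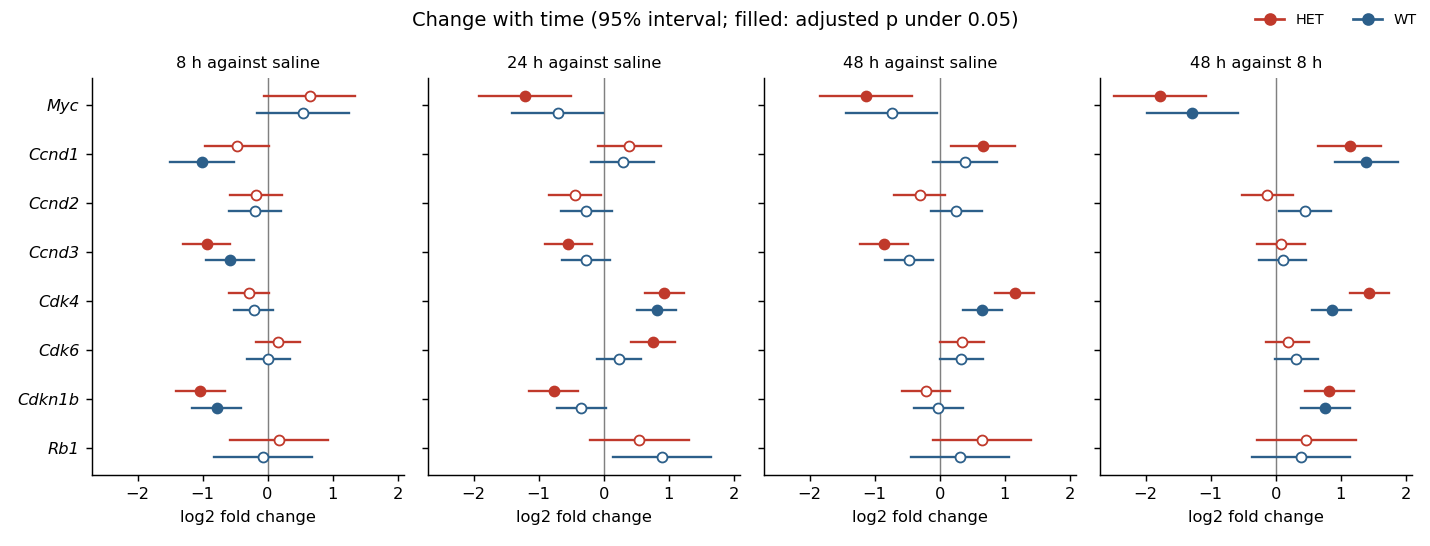
Log2 fold change of FPKM + 1 (horizontal axis) with 95% interval for the 8 genes at 8, 24 and 48 h against saline and at 48 h against 8 h, HET above WT; filled points passed the test across all genes. Cdk4 was higher in both genotypes in 3 of the 4 panels, and Myc was lower at 48 h than at 8 h in both.

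Cdkn1b (p27), the inhibitor among the 8, was low at 8 h and higher again at 48 h. It had 6.12, 4.71 and 4.42 FPKM in HET saline and 4.92, 4.78 and 4.10 FPKM in WT saline. At 8 h it had 1.82, 2.13 and 1.91 FPKM in HET and 3.19, 1.95 and 1.78 FPKM in WT. Neither genotype's 8 h animals reached its saline animals. At 24 h Cdkn1b had 2.67, 2.66 and 2.31 FPKM in HET and 5.23, 2.91 and 2.52 FPKM in WT, and at 48 h 4.17, 4.14 and 4.38 FPKM in HET and 4.08, 4.53 and 4.96 FPKM in WT. The HET 24 h animals were all below the HET saline animals, while 1 WT 24 h animal lay above all 3 WT saline animals. At 48 h the HET animals were again all below the HET saline animals, and the WT animals overlapped theirs.

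Cdkn1b fell at 8 h by 1.03 in HET (SE 0.18, adjusted p = 6.27e-05) and by 0.78 in WT (SE 0.18, adjusted p = 0.00108). At 24 h its change was -0.77 ± 0.18 in HET (adjusted p = 0.00174), which turned to 0.13 with the enzyme-free scaling and was -0.71 relative to the median of all genes under it. The WT change at 24 h was -0.34 ± 0.18 (adjusted p = 0.139). At 48 h against saline the values were -0.21 ± 0.18 in HET (95% interval -0.58 to 0.17, adjusted p = 0.365) and -0.02 ± 0.18 in WT (95% interval -0.39 to 0.35, adjusted p = 0.957). Between 8 and 48 h Cdkn1b rose by 0.83 in HET (adjusted p = 0.000683) and by 0.76 in WT (adjusted p = 0.00149), and both calls held in every other setting and left-out library.

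The other inhibitors took different courses. Cdkn1a (p21), a p53 target of the same family as Cdkn1b, averaged 206 FPKM in HET at 8 h against 13.5 FPKM in HET saline and 198 FPKM in WT at 8 h against 15.8 FPKM in WT saline. Its log2 fold change at 8 h was 3.86 in HET (adjusted p = 2.63e-08) and 3.79 in WT (adjusted p = 3.88e-08), and it was still higher than in saline at 48 h, by 1.77 in HET and 1.40 in WT. Cdkn1c, the third gene of that family, passed in none of these comparisons. Of the INK4 inhibitors, which bind Cdk4 and Cdk6 directly, 3 of 4 were tested. Cdkn2b (p15) rose at 8 h by 0.96 in HET and by 0.76 in WT, and Cdkn2c (p18) fell at 8 h by 1.52 in HET and by 0.74 in WT. By 48 h Cdkn2b rose relative to saline by 1.70 in HET and by 1.13 in WT, and Cdkn2a averaged 1.03 FPKM in HET and 1.20 FPKM in WT at 48 h against 0.0853 FPKM in HET saline and 0 FPKM in WT saline, where it is listed at 0.

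Of 8 genes for the turnover of p27, cyclin D and Myc 7 were tested, and at 8 h 3 rose and 2 fell in each genotype. Over all genes 55.2% in HET and 51% in WT were called at 8 h. The shares at 24 h were 43.8% in HET and 39.2% in WT. Cks1b, the cofactor with which the SCF ubiquitin ligase recognises p27, fell at 8 h by 1.96 in HET and by 1.10 in WT. Usp28, a deubiquitinase that stabilises Myc, rose by 0.82 in HET and by 0.85 in WT. Fbxw7, which marks Myc and cyclin E for degradation, fell at 8 h by 0.96 in WT (adjusted p = 1.62e-05). At 24 h against saline 3 rose and 2 fell in HET and 2 rose and 1 fell in WT, and with the enzyme-free scaling 4 rose and 0 fell in each genotype.

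Rb1, the pocket protein that the D cyclin kinases inactivate, passed in none of the 15 comparisons. It had 1.5, 5.06 and 3.07 FPKM in HET saline and 1.99, 4.43 and 2.92 FPKM in WT saline. Rb1 at 8 h had 5.74, 2.20 and 3.13 FPKM in HET and 3.19, 3.60 and 1.85 FPKM in WT. In these 4 groups the animals spread more widely than the group means did. At 24 h Rb1 had 2.99, 6.17 and 5.76 FPKM in HET and 12, 4.21 and 5.11 FPKM in WT, and at 48 h 5.03, 4.61 and 6.04 FPKM in HET and 4.19, 4.47 and 3.33 FPKM in WT. The widest value against saline was that of WT at 24 h (0.90 ± 0.36, 95% interval 0.14 to 1.66, adjusted p = 0.0550), where 1 animal at 12 FPKM stood above the others, and the HET value was 0.55 ± 0.36 (adjusted p = 0.233). Rcbtb2 and Lpar6 lie on the opposite strand within or across Rb1, so reads there cannot be told apart either.

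The relatives of Rb1 had called changes. Rbl2 (p130), the pocket protein typical of resting cells, averaged 0.762 FPKM in HET at 8 h against 3.70 FPKM in HET saline and 0.691 FPKM in WT at 8 h against 3.66 FPKM in WT saline. Its log2 fold change was -1.39 in HET (adjusted p = 1.92e-06) and -1.48 in WT (adjusted p = 1.03e-06), and at 48 h against 8 h it rose by 1.44 in HET and by 1.35 in WT. Rbl1 (p107), itself an E2F target, fell at 8 h in HET by 0.61 (adjusted p = 0.0262) and rose at 48 h against 8 h in HET by 1.13 (adjusted p = 0.000274). Of 10 E2F and DP factors 8 were tested. At 8 h 1 rose and 1 fell in each genotype, beside 55.2% of all genes called in HET and 51% in WT. E2f4, the main partner of p130 and p107, averaged 17.5 FPKM in HET at 8 h against 4.54 FPKM in HET saline and 16.2 FPKM in WT at 8 h against 3.97 FPKM in WT saline (log2 fold change 1.75 in HET and 1.8 in WT). It fell at 48 h against 8 h by 1.19 in HET and by 1.56 in WT, and with the enzyme-free scaling 0 of the list fell in HET and 1 in WT.

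Downstream of the pathway, most of the replication genes listed rose at 24 h. At that time 43.8% of all genes were called in HET and 39.2% in WT. Of the 4 genes of the cyclin E and CDK2 step 3 rose and 1 fell at 24 h in each genotype. The rises in WT numbered 1 to 3 with 1 library left out and 1 with a spread from only the groups compared. Ccne1 (cyclin E1) rose by 1.5 in HET (adjusted p = 2.51e-05) and by 1.10 in WT (adjusted p = 0.000655), while Cdc25a, the phosphatase that activates CDK2, fell by 1.37 in HET and by 1.05 in WT (0 falls in either genotype with the enzyme-free scaling). Of 20 E2F-activated S phase genes, 15 rose and 0 fell in HET and 18 rose and 0 fell in WT at 24 h (medians 0.71 and 1.05). Over all genes 23.9% rose in HET and 20.5% in WT. Pcna, the sliding clamp of DNA polymerase, averaged 29.0 FPKM in HET at 24 h against 14.9 FPKM in HET saline (0.90, adjusted p = 4.77e-05) and 26.4 FPKM in WT at 24 h against 10.1 FPKM in WT saline (1.33, adjusted p = 1.38e-06). At 8 h 24.5% of all genes fell in HET and 22.8% in WT. Of the 20 S phase genes, 10 had then fallen and 1 had risen in HET, and 1 had fallen and 2 had risen in WT. By 48 h 11 rose relative to saline and 0 fell in each genotype, but in WT the count ran between 5 and 13 with 1 library left out and was 5 with a spread from only the groups compared.

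Of 13 mitosis genes, 8 rose in HET and 13 in WT at 24 h, and 11 rose in HET and 9 in WT at 48 h, with 0 lower in each. Over all genes 24.2% rose in HET and 11.8% in WT at 48 h against saline. At 24 h the HET count was 3 without the libraries that stood apart, between 3 and 9 with 1 library left out and 4 with a spread from only the groups compared. At 48 h the WT count ran between 4 and 10 with 1 library left out and was 3 with that spread. From 8 to 48 h, 18 S phase and 13 mitosis genes rose in HET and 10 S phase and 12 mitosis genes in WT, with 0 lower (5 to 12 mitosis genes in WT with 1 library left out). Over all genes 23.4% rose in HET and 22.5% in WT from 8 to 48 h. Of the 3 subunits of the CDK-activating kinase, which phosphorylates Cdk4 itself, 1 rose and 1 fell in HET and 2 rose in WT at 8 h, and 0 passed at 24 h in either genotype (3 rose in each with the enzyme-free scaling). Markers of other cells moved in the same comparisons. At 24 h 23.9% of all genes rose and 19.8% fell in HET, and 20.5% rose and 18.7% fell in WT. Of 8 macrophage markers, 7 rose in HET and 8 in WT at 24 h and 7 in each at 48 h against saline, and none was at 0 in any group. Of 8 fibroblast and stellate markers 0 rose and 2 fell in HET and 7 rose in WT at 24 h, 6 rose and 1 fell in HET and 5 rose in WT at 48 h against saline, and 7 rose in HET and 6 in WT at 48 h against 8 h. All 6 neutrophil markers tested rose in HET and 3 of them in WT at 24 h. All 6 acinar markers tested fell in each genotype at 24 h. The part of these markers in the changes of Cdk4 and the cell cycle genes was not tested.

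**Figure D3:**
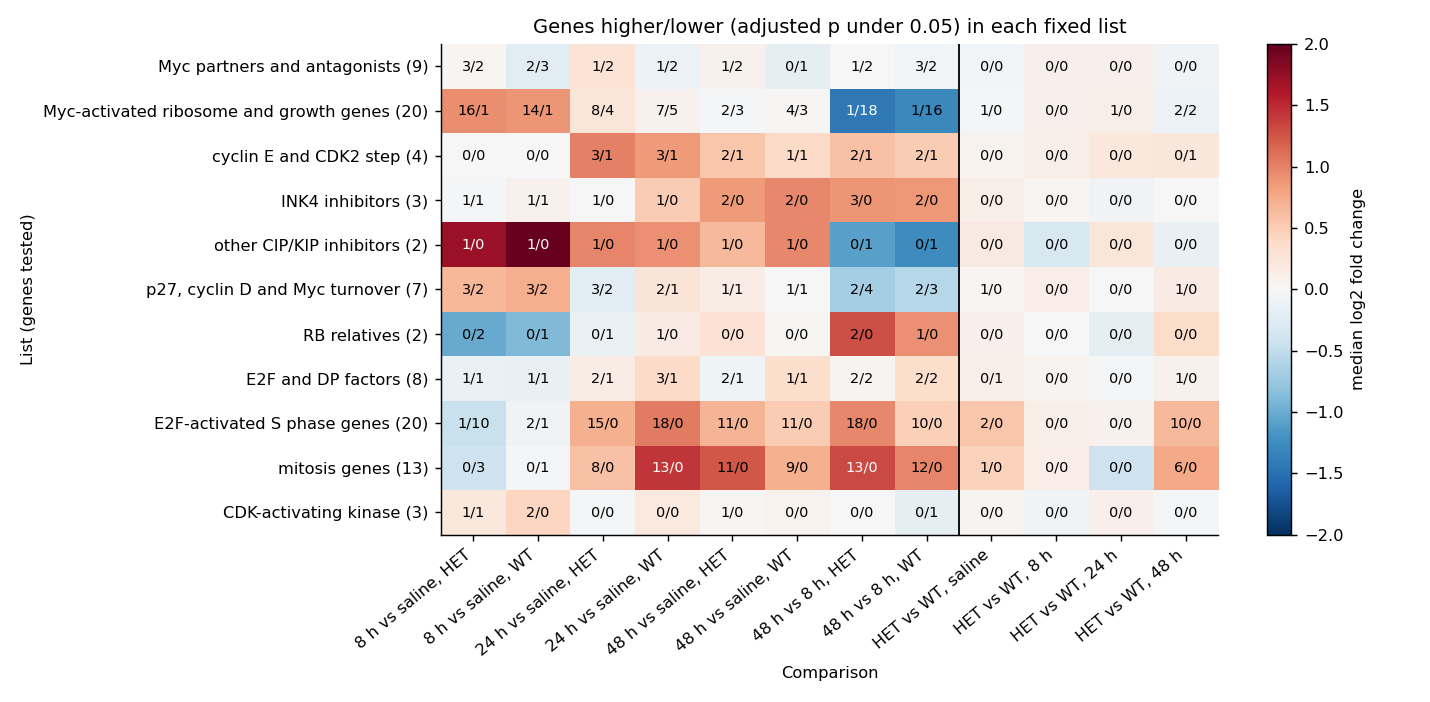
Median log2 fold change (colour, -2 to 2) of each of 11 lists of pathway genes in 12 comparisons, with the number of genes higher and lower past the test in each cell. The growth genes that Myc activates are higher at 8 h against saline and lower at 48 h against 8 h, and the S phase and mitosis lists are higher at 24 and 48 h.

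The comparison of genotypes asks whether 1 copy of Nr5a2 alters this machinery at rest or after injury. In saline 0 of the 8 genes passed in limma, where 2.36% of all genes were called, and 1 had an unadjusted p under 0.05. That gene was Ccnd3, at 14.5 ± 0.500 FPKM in HET and 10.9 ± 1.68 FPKM in WT (SD, n = 3 each), without overlap, with a log2 difference of 0.39 ± 0.18 (95% interval 0.03 to 0.76, adjusted p = 0.222). Myc (-0.11, 95% interval -0.82 to 0.59) and Cdk4 (0.21, 95% interval -0.09 to 0.51) had intervals that spanned 0. At 8 h 0 of the 8 passed in limma, where 0.218% of all genes were called, and 0 had an unadjusted p under 0.05. Myc differed by -0.01 (95% interval -0.71 to 0.69) and Ccnd1 by 0.38 (95% interval -0.11 to 0.87) at 8 h.

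At 24 h 1 of the 8 passed, where 6.5% of all genes were called. Cdk6 averaged 1.67 ± 0.228 FPKM in HET and 0.839 ± 0.273 FPKM in WT (SD, n = 3 each), a log2 difference of 0.55 ± 0.16 (SE, adjusted p = 0.0451). This call sits at the threshold: it was lost with a pseudocount of 0.1 (0.96, adjusted p = 0.0749), with no filter on low values (adjusted p = 0.0608), when the spread came from the HET and WT 24 h libraries only (adjusted p = 0.150) and in 18 of the 24 fits that leave out a library. The HET animals lay above the WT animals in Cdk4 without overlap, but the difference did not pass (0.33 ± 0.14, adjusted p = 0.196), and below them in Myc without overlap, which did not pass either (-0.62 ± 0.34, 95% interval -1.32 to 0.08, adjusted p = 0.313). Under the enzyme-free scaling the Cdk4 and Myc differences were 0.58 and -0.41. The summed level of 7 duct markers, none of them at 0, was 953 to 1050 FPKM in HET and 431 to 732 FPKM in WT at 24 h, without overlap, and 1 of 6 tested (Krt19, a keratin of duct cells, 0.95, adjusted p = 0.0154) was higher in HET. Their part in the Cdk6 difference was not tested.

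At 48 h 1 of the 8 passed, where 12.2% of all genes were called. Cdk4 averaged 113 ± 7.77 FPKM in HET and 68.7 ± 1.71 FPKM in WT (SD, n = 3 each), a log2 difference of 0.71 ± 0.14 (1.64-fold, 95% interval 0.41 to 1.01, adjusted p = 0.00358), which ranked 311 by p among 12867 genes. The call was kept with each of the 24 libraries left out and in 6 of 7 other settings, and lost with the spread of the 2 groups alone (adjusted p = 0.0737). Ccnd2 averaged 10.6 ± 3.49 FPKM in HET and 15.3 ± 3.20 FPKM in WT (-0.52 ± 0.19, adjusted p = 0.0824), and the animals overlapped. Myc differed by -0.51 ± 0.34 (95% interval -1.21 to 0.19, adjusted p = 0.360), and Rb1 in HET lay above WT without overlap but did not pass (0.32 ± 0.36, adjusted p = 0.633). Averaged over the 4 conditions, 1 of the 8 passed, where 18.6% of all genes were called. It was Cdk4 again, by 0.35 ± 0.07 (1.27-fold, adjusted p = 0.00239), with the HET mean above the WT mean in all 4 conditions. Cdk6 averaged 0.19 ± 0.08 (adjusted p = 0.0969) and Myc -0.31 ± 0.17 (adjusted p = 0.208).

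Other cell cycle genes were higher in HET beside Cdk4 at 48 h, when 5.85% of all genes were higher and 6.37% lower. Of the 20 S phase genes 10 were higher and 0 lower in HET, led by Ccna2 (0.94), the cyclin of S phase, at 4.83 FPKM in HET and 2.06 FPKM in WT. Of the 13 mitosis genes 6 were higher and 0 lower, led by Birc5 (survivin), which averaged 7.07 FPKM in HET and 2.12 FPKM in WT (1.43 ± 0.25, adjusted p = 0.00125). Without the libraries that stood apart these counts were 3 and 1, with a pseudocount of 0.1 they were 6 and 1, with the spread of the 2 groups alone 0 and 0, and over the left-out libraries they ran between 1 and 13 and between 1 and 9. Cdc25a was lower in HET (-0.55, adjusted p = 0.0123), as were the Myc-activated Odc1 (-0.77, adjusted p = 0.0179) and Srm (-0.95, adjusted p = 0.0271), whereas Ldha, also activated by Myc, was higher (0.53, adjusted p = 0.0101). With the enzyme-free scaling, which puts the median of all genes at 0.42 here, 0 growth genes and 0 genes of the cyclin E step were lower, and the growth list's median was -0.07 relative to that of all genes. Differences in the S phase and mitosis lists were not confined to 48 h. In saline the summed S phase genes were 56.7 to 63.7 FPKM in HET and 29.4 to 39.4 FPKM in WT. The summed mitosis genes were 10.0 to 16.6 FPKM in HET saline and 2.62 to 6.43 FPKM in WT saline. At 8 and 24 h both sums overlapped. In the mean of the 4 conditions 13 S phase genes and 1 mitosis gene were higher and 0 lower. Over all genes 10.2% were higher in that mean.

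**Figure D4:**
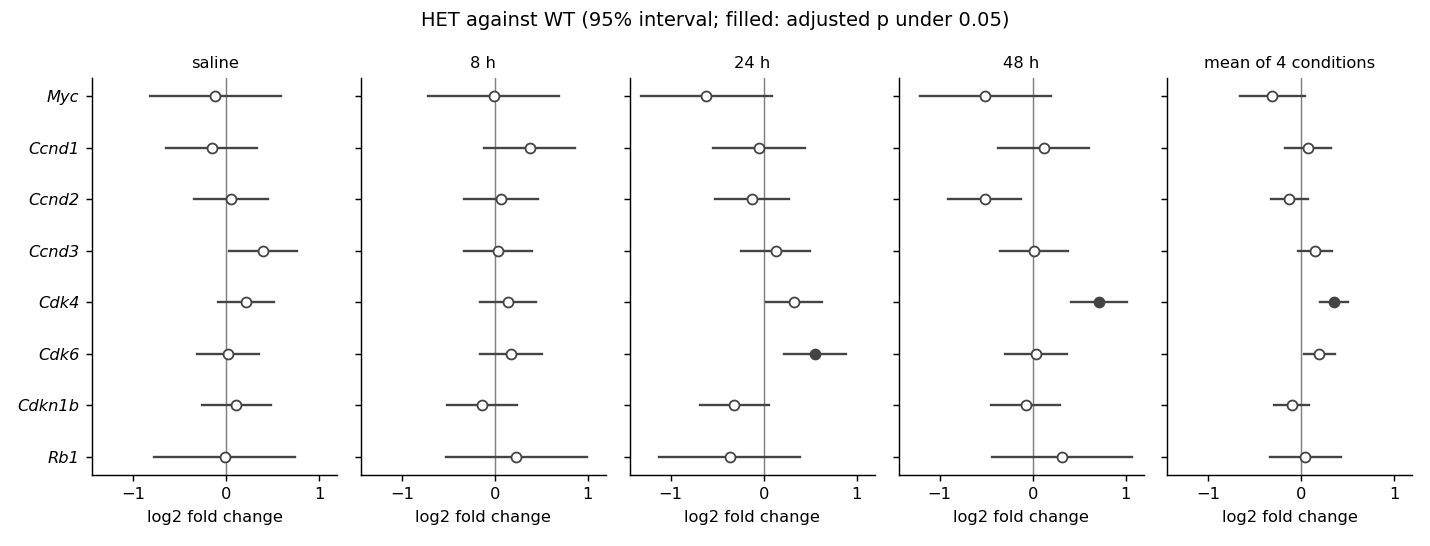
Log2 difference of FPKM + 1, HET minus WT (horizontal axis), with 95% interval for the 8 genes in saline, at 8, 24 and 48 h and averaged over the 4 conditions; filled points passed the test across all genes. Cdk4 passed at 48 h and in the mean, Cdk6 at 24 h, and the Myc points lie below 0 at 24 and 48 h with intervals that span it.

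Markers of other cells also differed between the genotypes, in conditions where Cdk4 was called and in others. The summed level of 8 macrophage markers, none of them at 0, was 171 to 399 FPKM in HET saline and 59.5 to 145 FPKM in WT saline, 266 to 362 FPKM in HET and 92.0 to 197 FPKM in WT at 8 h, 668 to 1062 FPKM in HET and 470 to 775 FPKM in WT at 24 h, and 667 to 1132 FPKM in HET and 223 to 726 FPKM in WT at 48 h. These sums did not overlap between the genotypes in saline and at 8 h, and overlapped at 24 and 48 h. Of the 8, 4 were higher in HET at 48 h and 8 in the mean of the conditions. The 4 at 48 h became 0 to 7 with 1 library left out, 1 without the libraries that stood apart and 0 with the spread of the 2 groups alone. The summed acinar markers were 2514 to 32247 FPKM in HET and 50409 to 123253 FPKM in WT at 48 h, when 9 of 10 tested were lower in HET and Amy2a5 was at 0 in both genotypes (Cela2a in WT as well). The summed fibroblast and stellate markers were 319 to 599 FPKM in HET saline and 172 to 238 FPKM in WT saline. They were 228 to 246 FPKM in HET and 181 to 220 FPKM in WT at 8 h. At 24 h they were 363 to 483 FPKM in HET and 379 to 756 FPKM in WT. At 48 h they were 712 to 1198 FPKM in HET and 429 to 856 FPKM in WT, with 3 of 8 higher in HET. With 1 library left out the acinar count ran between 5 and 9 and the fibroblast and stellate count between 0 and 4, without the libraries that stood apart they were 8 and 0, and with the spread of the 2 groups alone 0 and 0. The part of these in the Cdk4, S phase and mitosis differences was not tested.

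Whether the response itself differed between genotypes was tested as an interaction. For the 24 h response 0 of the 8 passed in limma, where 2.31% of all genes were called, and 1 had an unadjusted p under 0.05 (Cdk6, 0.53 ± 0.23 larger in HET, 95% interval 0.05 to 1.00, adjusted p = 0.226). For the change between 8 and 48 h 0 of the 8 passed in limma, where 0.723% of all genes were called, and 2 had an unadjusted p under 0.05. These were Cdk4 (0.57 ± 0.20 more in HET, 95% interval 0.15 to 1.00, adjusted p = 0.213) and Ccnd2 (-0.58 ± 0.27, 95% interval -1.14 to -0.02, adjusted p = 0.373). The interval of the Myc difference in the 24 h response, -1.5 to 0.49, spans 0. Genotype differences in the changes from saline at 8 and 48 h were not tested.

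The genes whose levels followed each of the 8 most closely were named by Pearson r over the 24 libraries, which share groups, library depth and scaling, so r is a description. Among 10926 candidates Myc was closest to Pim3 (0.926), a serine/threonine kinase, then Dpp9 and Tle1. Cdk4 was close to Ccdc122 (0.948) and Dcaf4, and Ccnd1 was closest to Rgs5 (0.885), Cpne3 and Rfc1, the large subunit of the replication clamp loader. Ccnd3 was closest to Grina (0.856), Ergic3 and Dolk, of which Ergic3 and Dolk act in the endoplasmic reticulum or the early secretory pathway. Cdkn1b was closest to Hpgd (0.888), a prostaglandin-degrading enzyme, Gm21974 and Kifc3. Cdk6 was closest to Mir147 (0.870), Clcn5 and Cd2ap, and Rb1 to Atl3 (0.799), Wdfy4 and Parp14. Ccnd2 had the lowest top value, with Crim1 at 0.736.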

How the data were processed

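The submitters' processing notes list CASAVA 1.8, Bowtie, Cufflinks 2.0.2, Cuffnorm and genome build mm9, without roles or order. The authors deposited FPKM per Ensembl gene; the table's header does not give a unit, which was read from the listing of Cuffnorm. FPKM gives no absolute depth, so no counting error is given. Per the labels' protocols, poly(A) RNA (integrity numbers 6.6 to 9.2) was prepared with an earlier TruSeq guide (10 PCR cycles, saline and 24 h) or the v2 guide (8 cycles, 8 h and 48 h) and sequenced on a Genome Analyzer IIx.

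The 8 genes and all 21 gene lists were chosen with earlier results of these data known. Libraries are of different animals by the series design, and replicates were numbered in accession order. Genes that reached 1 FPKM in 3 or more of the 24 libraries were fitted as log2(FPKM + 1) with 1 mean per group in limma 3.58.1 (R 4.3.3; trend and robust moderation, 16 residual degrees of freedom). The 15 comparisons were two-sided, with Benjamini-Hochberg adjustment over all genes of a comparison and a threshold of 0.05. Where all libraries of one group were at 0 and all of another at 100 FPKM or more, the zeros were treated as missing (22 genes, 0 of the 8). The fit was tested on simulated data. Besides the 8 genes, the rule names up to 3 genes per list and comparison with the smallest adjusted p, and the 3 genes closest to each of the 8 by Pearson r. List genes named in a comparison where this rule takes others were chosen after their values were seen. Alternatives were a pseudocount of 0.1, no filter, median-of-ratios scaling, the enzyme-free scaling (total FPKM less digestive enzyme and Reg genes), a spread estimated from only the groups compared, zeros kept, and each library left out. Leaving out both libraries that stood apart was added after seeing the data. Promoters are RefSeq windows of GRCm38.p6, and overlaps come from GENCODE M21 on GRCm38. No mm9 coordinates are given. Tables and plots used Python 3.11.15, pandas 2.3.3, numpy 2.4.6 and matplotlib 3.10.9. One gene among those with levels most like a member is not reported here.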

Additional observations from a re-analysis of the deposited data

Results flagged for a closer look

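In the 11 lists of pathway genes beside the 8, the 24 h response differed between genotypes by a test of the difference itself in 2 genes. Over all genes 2.31% were called in this test, and the count of 2 says nothing particular about these lists. Among the markers of cell types, 1 acinar, 2 adipocyte and 2 fibroblast and stellate markers also had a lower 24 h response in HET than in WT. Cdkn2c (p18), an inhibitor of Cdk4 and Cdk6, averaged 2.26 FPKM in HET at 24 h against 3.91 FPKM in HET saline, and 4.07 FPKM in WT at 24 h against 1.76 FPKM in WT saline. Its 24 h response was -1.49 ± 0.37 in HET relative to WT on the log2 scale (limma, adjusted p = 0.0384). Top2a, the topoisomerase of dividing cells, averaged 6.38 FPKM in HET at 24 h against 3.01 FPKM in HET saline, and 11.4 FPKM in WT at 24 h against 1.16 FPKM in WT saline. It rose in both genotypes, with a response of -1.57 ± 0.38 in HET relative to WT (adjusted p = 0.0333). Under the enzyme-free scaling, or with a spread from only the groups compared, neither the INK4 list nor the mitosis list held a called difference. With 1 library left out the genes called lower numbered 0 to 1 in the INK4 list and 0 to 4 in the mitosis list. With groups of 3 animals no single sample was tested as an outlier.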

How the results depend on the processing

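No paired analysis was possible because the replicate numbers follow accession order and the labels pair no animals. Of 120 results for the 8 genes 27 were called. Of these, 17 were called in all 7 other settings and with each library left out, and 21 with each library left out. Keeping zeros alters no value of the 8 genes and median-of-ratios scaling changes levels little, so the number of settings overstates how hard the calls were tried. A further 22 were called with the same sign in at least 1 other setting, 18 of them under the enzyme-free scaling. That scaling puts the median change of all genes between 0.43 and 0.85 at 24 and 48 h. It turned the HET values against saline at 24 h to 0.61 (Ccnd2), 0.52 (Ccnd3) and 0.13 (Cdkn1b). At 48 h they turned to 0.71 (Ccnd2), 0.16 (Ccnd3) and 0.72 (Cdkn1b). At 48 h against 8 h Ccnd2 in HET turned to 0.79. Values called with the turned sign, beyond the 22, were Ccnd2 (adjusted p = 0.0340) and Cdkn1b (adjusted p = 0.0113) at 48 h against saline. Ccnd2 at 48 h against 8 h (adjusted p = 0.0219) was called so as well. The enzyme-free scaling gave 3 called genes for the mean HET against WT, 4 for 24 h and 4 for 48 h against saline in WT, and 8 for 48 h against 8 h in HET. For HET against WT at 24 h a pseudocount of 0.1, no filter, and a spread from only the compared groups gave 0 each. The same spread gave 0 at 48 h as well, and 2 for 48 h against saline in HET. Median-of-ratios scaling gave 2 for 48 h against saline in WT. Leaving out both libraries that stood apart gave 4 for 8 h in HET, 2 for 24 h in WT and 2 for 48 h in HET against saline. With 1 library left out the counts lay between 0 and 1 (HET against WT, 24 h), 1 and 2 (48 h), 1 and 2 (mean), 2 and 4 (8 h against saline, HET), 1 and 3 (24 h, WT), 2 and 4 (48 h, HET) and 1 and 2 (48 h, WT). The cause of these changes was not tested.

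Counts over all genes moved too. Enzyme-free, HET against WT gave 11 genes in saline (303 as reported), 10 at 8 h (28), 3962 at 48 h, 3640 of them higher (1572, 753 higher), and 3701 in the mean, 3345 higher (2394, 1315 higher). Against saline it gave 9018 at 24 h in HET, 8403 higher (5626, 3075 higher), 7840 in WT, 7344 higher (5033, 2630 higher), and 9193 at 48 h in HET, 8600 higher (5683, 3108 higher). It gave 64 and 8 for the interactions (297 and 93). With a spread from only the compared groups, HET against WT gave 1, 4, 256 (836) and 19 in saline and at 8, 24 and 48 h, WT against saline gave 3204 at 24 h and 1797 at 48 h (3258), and the interactions 101 and 6. A pseudocount of 0.1 gave 5 for HET against WT at 8 h and 48 for the change between 8 and 48 h. Without both libraries that stood apart HET against WT at 48 h gave 654, 48 h against saline in HET 3532 and the change between 8 and 48 h 51. With 1 library left out, HET against WT lay between 117 and 434 in saline, 306 and 1029 at 24 h, and 477 and 2264 at 48 h. Calls for genes near 1 FPKM, Cdk6 among them, depend on the pseudocount, and 3 animals a group limit all intervals.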
